A study of Mus musculus with 16 samples.

Results

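Transmitter-gated receptor channels are membrane proteins that open an ion pore when a neurotransmitter binds. Their genes were followed in sorted, tracer-positive cells of lumbar dorsal root ganglia (L3 to L5) from male mice. The set holds the subunit genes of the nicotinic acetylcholine, serotonin 5-HT3, GABA-A, glycine, AMPA, kainate, NMDA and delta receptors, chosen by symbol, and comprised 60 of the 22609 gene entries. Selection went by symbol and used no measured value, although earlier results of these data were known when the set was chosen. The pattern of symbols also took in 1 gene of a scaffold protein that is no channel subunit.

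The libraries fell into 4 groups of 4. The PTX CKO mice carried floxed Ltbr alleles and a Cre recombinase driven by the Nav1.8 gene, and received paclitaxel (PTX). The PTX fl/fl mice carried the floxed alleles without Cre and received PTX. The vehicle CKO and vehicle fl/fl mice had the same 2 genotypes and a treatment label of water. Every group therefore shared floxed Ltbr, which encodes the lymphotoxin-beta receptor, and Cre was limited to cells that use the promoter of Nav1.8, a nociceptor sodium channel. The mice were 8 to 16 weeks old. PTX, which binds and stabilises microtubules and often leaves patients with neuropathic pain, was given into the abdomen at 6 mg per kg, 3 times with 2 days between injections. The paw was injected with fluorescent wheat germ agglutinin 16 days after the last dose, and labelled cells were sorted from ganglia taken on day 18. The treatment text on every library describes PTX, so the vehicle groups rest on the treatment label. The design text gives 3 mice per group where 4 libraries were present, and the labels do not say whether each library is a separate animal, so p-values measure the spread between libraries, which may be technical.

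Gene counts ranged from 7906504 to 11668007 per library. The titles carry 4 dates, an earlier and a later one within PTX and within vehicle, with both genotypes on each. Date was therefore nested in treatment, and the 2 cannot be told apart. Ltbr, the targeted gene, was not lower under the CKO label, so CKO means the libraries labelled so: it averaged 19.3 ± 9.64 CPM (a gene's counts scaled to the effective library size) in PTX CKO and 10.6 ± 4.18 in PTX fl/fl, and 54.6 ± 31.2 in vehicle CKO and 47.2 ± 3.74 in vehicle fl/fl (SD, n = 4 each; edgeR adjusted p = 1 in both). Sensory neuron markers were present in every group, none of 14 at 0, and their sum ran from 7796 to 20737 CPM after PTX, against 1010 to 6512 CPM after vehicle, without overlap. The sum of 9 Schwann cell markers ran from 1548 to 2837 CPM after PTX, against 5589 to 8366 CPM after vehicle, and that of 12 satellite glia markers from 1451 to 6476 CPM, against 3579 to 11379 CPM. Neutrophil markers summed to between 263 and 115268 CPM after PTX, against 69983 to 226227 CPM after vehicle. The 11 macrophage markers summed to between 61.8 and 5183 CPM, against 4568 to 13075 CPM, with overlap. The 6 fibroblast markers summed to between 94.5 and 427.1 CPM, against 427.6 to 2881 CPM, so these ranges only just missed each other. These sums moved with treatment beside every PTX difference given here, and their part in it was not tested. In sorted bulk RNA, fewer cells of a type and less RNA per cell cannot be told apart.

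As background, nicotinic, 5-HT3, GABA-A and glycine receptors belong to the Cys-loop superfamily, in which a ring of subunits surrounds the pore. The first 2 pass cations and excite, whereas GABA-A and glycine receptors pass chloride. In sensory neurons intracellular chloride is kept high by the transporter Slc12a2, so that GABA depolarises their terminals. AMPA, kainate and NMDA receptors are tetramers that pass cations in response to glutamate, and in sensory neurons they are found on central terminals and on peripheral endings.

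Promoter sequence is shown for 3 of the 8 members that were called different after PTX and had a RefSeq window. They are Chrnb2 and Grin1, which lay above all vehicle libraries in every PTX library, and Grik3, the 1 that was lower. Each is the 250 bases before the annotated start in GRCm38.p6, written 5′ to 3′ on the gene's strand, with 0 of the 250 bases in a GENCODE M21 exon. Capitals mark GGGCGG, or CCGCCC on the other strand, the core of a GC box. The windows lie at chr3:89764633-89764882 (minus strand, Chrnb2), chr2:25319188-25319437 (minus, Grin1) and chr4:125490446-125490695 (plus, Grik3).
Chrnb2: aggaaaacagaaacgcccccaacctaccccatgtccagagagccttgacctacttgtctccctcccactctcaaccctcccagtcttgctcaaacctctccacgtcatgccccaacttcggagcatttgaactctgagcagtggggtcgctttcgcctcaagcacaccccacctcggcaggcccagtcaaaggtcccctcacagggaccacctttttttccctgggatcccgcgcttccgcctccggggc
Grin1: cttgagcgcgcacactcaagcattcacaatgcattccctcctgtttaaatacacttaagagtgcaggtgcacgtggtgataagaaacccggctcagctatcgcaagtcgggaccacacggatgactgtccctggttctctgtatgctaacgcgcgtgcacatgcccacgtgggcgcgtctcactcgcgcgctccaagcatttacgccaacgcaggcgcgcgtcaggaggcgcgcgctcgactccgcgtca
Grik3: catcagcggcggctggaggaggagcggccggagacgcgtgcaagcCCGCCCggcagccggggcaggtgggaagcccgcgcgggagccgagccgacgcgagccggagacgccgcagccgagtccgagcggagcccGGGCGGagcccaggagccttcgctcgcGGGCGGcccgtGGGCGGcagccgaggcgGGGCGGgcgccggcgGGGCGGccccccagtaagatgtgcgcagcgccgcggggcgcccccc
The Grik3 window held 6 matches at a GC content of 82%. The windows of Chrnb2 and Grin1 had no match, with 59.6% and 58.8% GC. Over all genes 32.7% of 32851 windows held the motif. Among the receptor channel genes 21 of 49 windows did (42.9%), and of the 8 members with a window that were called different, 4 did (Chrna3, Chrna4, Chrna7 and Grik3). One of these was called lower and the other 3 higher, so the letters were found in windows of both kinds.

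Of the 60 members, 36 passed the filter on low counts and 24 did not. The 10 with 0 counts in all 16 libraries were Chrna5, Chrna9, Chrnd, Chrng, Gabra6, Gabrp, Gabrq, Gabrr3, Glra3 and Grin2a. The other 14 had 3 to 50 counts in at most 5 libraries, among them Chrna1, Chrna2, Chrna10, Chrne, Gabra4, Gabrg3, Gabrr1, Gabrr2, Glra1, Glra2, Glra4, Grin2b and Grin2c. Chrnd, Chrng and Chrne, which with Chrna1 and Chrnb1 form the muscle receptor, were thus absent or near 0, and of these 5 only Chrnb1 was tested. The glycine receptor alpha genes were all in this low set, while Glrb, the beta subunit that anchors the receptor to gephyrin, passed. Most of the members tested were sparse: 9 of 36 had a count in all 16 libraries. PTX libraries had counts for 26 to 36 of these members, and vehicle libraries for 20 to 31. The filter asked for a minimum count in 4 libraries of any kind. Of the 36, 22 met it in the PTX and in the vehicle libraries alike, 12 only through PTX libraries, 0 only through vehicle libraries and 2 only with both together. Over all genes tested, 7.28% met it only through PTX libraries. Such a gene is low after vehicle by the way it entered, so counts and medians over the 36 members describe them and are no support for a direction.

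**Figure D1:**
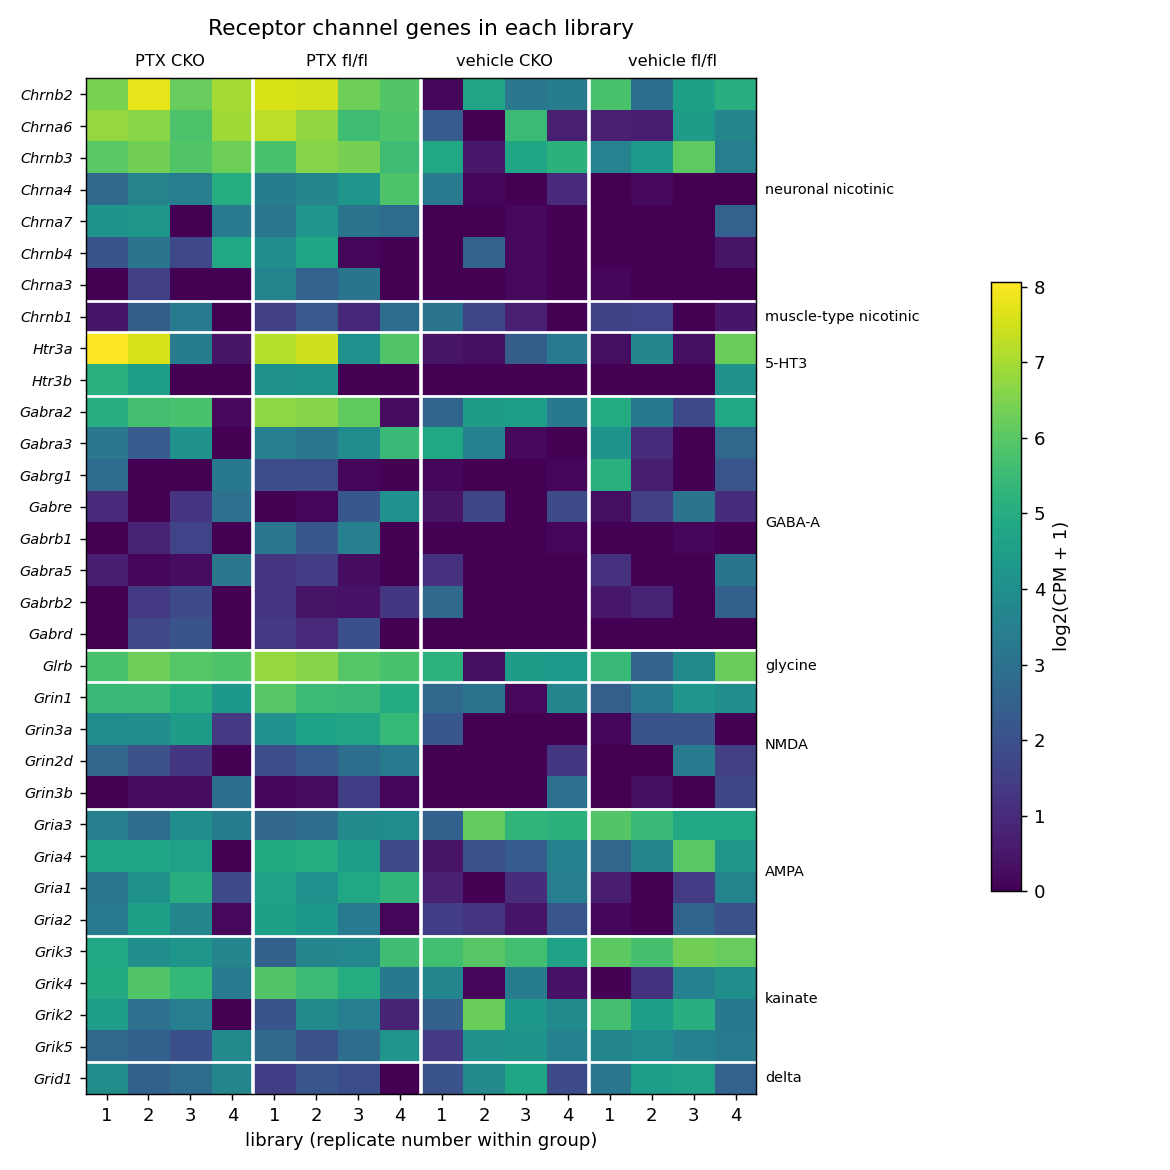
Level of 32 of the 36 receptor channel genes that passed the count filter, as log2(CPM + 1) (colour), in each of the 16 libraries (columns, grouped by treatment and genotype), with genes grouped by subfamily. Chrnb2, Chrna6, Chrnb3 and Glrb are bright across the PTX libraries, whereas Grik3 and Gria3 are brighter in most vehicle libraries.

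Per kilobase of exon, on the scale of CPM per kb, the highest levels after PTX were those of Htr3a at 51.9 ± 48.4, Chrna6 at 32.1 ± 12.8, Chrnb2 at 15.2 ± 7.55 and Glrb at 15.2 ± 4.70 (SD, n = 8). After vehicle the order began with Grik3 at 6.32 ± 1.92, Htr3a at 6.14 ± 12.5, Glrb at 5.68 ± 5.15, Chrnb3 at 3.85 ± 3.20, Gria3 at 3.83 ± 2.00 and Chrna6 at 3.56 ± 5.35. Each neighbouring pair in these orders differed by less than its spread, apart from the step between Chrna6 and Chrnb2 after PTX. Grik3 was at 2.07 ± 1.47 CPM per kb after PTX.

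The question of whether PTX changed receptor channel RNA was first asked within each genotype. In CKO, 0 of 36 members were called by edgeR's quasi-likelihood test with Benjamini-Hochberg adjustment over all 14200 genes, where 2.22% of all genes were called higher and 0.359% lower. In fl/fl, 1 member, Chrna4, was called higher and 0 lower, against 3.18% of all genes higher and 1.76% lower. Unadjusted p was under 0.05 for 11 members in CKO and 13 in fl/fl, against 19.7% and 19.5% of all genes. DESeq2 called 6 of the 34 members to which it gave an adjusted p in CKO and 7 of 34 in fl/fl, against 9.68% and 11.0% of all genes. In CKO, all 4 PTX libraries lay above all 4 vehicle libraries for 5 members and below them for 0, against 8.91% and 4.54% of all genes. In fl/fl, they lay above for 10 members and below for 3, against 11.0% and 7.80% of all genes. The median log2 fold change of the members was 2.30 in CKO and 1.60 in fl/fl, while that of all genes was 0.02 in CKO and -0.01 in fl/fl. The count in CKO was 2 without PTX CKO replicate 3 or vehicle CKO replicate 1, and 1 without vehicle fl/fl replicate 2. In fl/fl it was 2 without PTX fl/fl replicate 4, vehicle fl/fl replicate 4 or vehicle CKO replicate 3, and 3 without vehicle CKO replicate 1. Libraries of the other genotype enter because all 16 share 1 estimate of the spread.

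Averaging the PTX difference over both genotypes, which reuses the same libraries and adds no independent evidence, compared 8 PTX with 8 vehicle libraries. It called 10 members higher (Chrna3, Chrna4, Chrna6, Chrna7, Chrnb2, Chrnb4, Gabrb1, Gabrd, Grin1 and Grin3a) and 2 lower (Gria3 and Grik3), where 10.6% of all genes were called higher and 6.19% lower. Of the 10, 6 were neuronal nicotinic subunits. Chrna3, Chrna4, Chrna7, Chrnb4, Gabrb1, Gabrd and Grin3a, 7 of the 10, had passed the filter only through PTX libraries, where 20.1% of all such genes were called higher. Among the 22 members that met it under both treatments, 3 were called higher (Chrna6, Chrnb2 and Grin1) and 2 lower. Over all genes that met it so, the shares were 10.7% and 6.68%. The median log2 fold change of the 22 members was 1.49, with no median over all such genes to set beside it. Chrna6, Chrnb2 and Grin1 lay above all vehicle libraries in every PTX library, against 3.42% of all genes, and 0 members lay below, against 0.965%. Unadjusted p was under 0.05 for 21 members, against 31.7% of all genes, and DESeq2 called 18 of 35 members, against 24.8% of all genes. The median log2 fold change of the 36 members was 1.74, with 28 positive and 8 negative values, against 0.01 over all genes. The count of 12 fell to 7 without PTX fl/fl replicate 1 and to 7 without PTX CKO replicate 2. With the earlier PTX date left out it was 1, and with the marker mean of sensory neurons, or that of satellite glia and Schwann cells, as a covariate it was 0. Both marker means differ between treatments, so such a fit takes up much of the treatment difference.

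**Figure D2:**
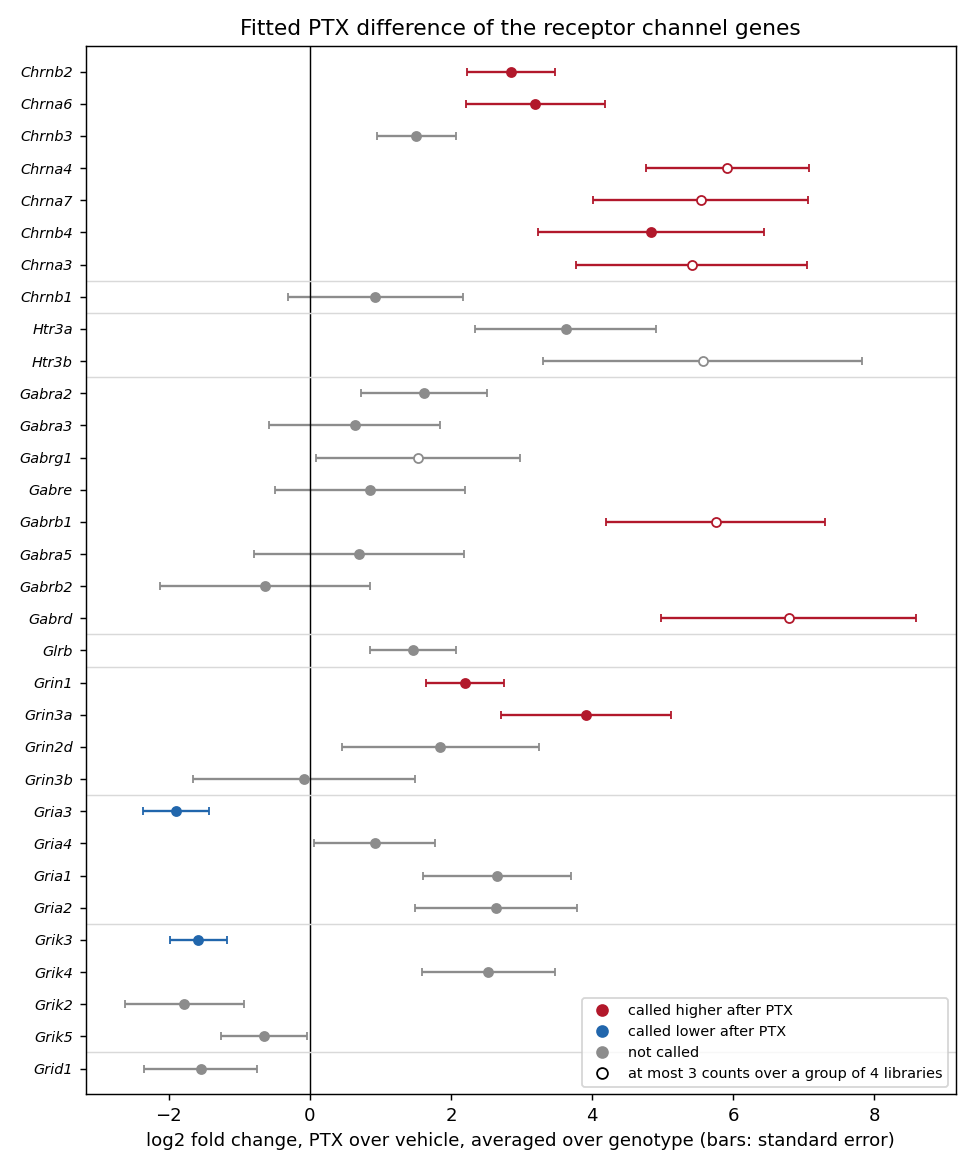
Fitted log2 fold change (x axis, PTX over vehicle, averaged over genotype) with its standard error for 32 of the 36 members tested, ordered as in the heat map. Red points were called higher after PTX (10 members) and blue ones lower (2 members); open circles mark Chrna3, Chrna4, Chrna7, Gabrb1, Gabrd, Gabrg1 and Htr3b, with at most 3 counts over a vehicle group of 4 libraries, whose fitted fold is no measure of size.

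Of the 11 neuronal nicotinic subunit genes 7 were tested, and of these 6 were called higher after PTX and 0 lower. Over all genes 10.6% were called higher and 6.19% lower. Chrna3, Chrna4, Chrna7 and Chrnb4 had passed the filter only through PTX libraries, where 20.1% of all such genes were called higher. Chrna6 and Chrnb2 had passed it under both treatments. The summed neuronal nicotinic level was 334 ± 107 CPM after PTX and 57.3 ± 27.7 CPM after vehicle (SD, n = 8 each), a ratio of 5.84. The sums did not overlap, at 199 to 451 CPM after PTX and 26.4 to 110 CPM after vehicle. Within genotype the ratio was 6.63 in CKO and 5.24 in fl/fl.

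Chrna6 encodes an alpha subunit whose channels in mouse sensory neurons have been tied to mechanical pain. It had 109, 98.9, 55.6 and 121 CPM in PTX CKO and 152, 106, 46.4 and 56.2 CPM in PTX fl/fl, against 4.15, 0, 44.3 and 0.625 CPM in vehicle CKO and 0.655, 0.585, 20.6 and 11.8 CPM in vehicle fl/fl. The lowest PTX library stood just above the highest vehicle library, vehicle CKO replicate 3. The averaged log2 fold change was 3.20 ± 0.98 (SE; edgeR adjusted p = 0.0376). The call was lost on leaving out any 1 of 9 libraries (PTX fl/fl replicates 1 and 2, PTX CKO replicates 2 and 4, vehicle fl/fl replicates 1, 2 and 4, vehicle CKO replicates 1 and 4), with adjusted p of 0.0502 to 0.0725.

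Chrnb3, which lies next to Chrna6 on chromosome 8 and encodes an accessory beta subunit that assembles with it, was added after its values were seen. It had 62.6, 79.9, 57.9 and 76.8 CPM in PTX CKO and 53.1, 96.9, 84.0 and 46.5 CPM in PTX fl/fl. Vehicle CKO libraries had 27.4, 0.442, 26.1 and 35.6 CPM, and vehicle fl/fl libraries 11.0, 19.1, 66.6 and 10.2 CPM. Chrnb3 thus overlapped between treatments through vehicle fl/fl replicate 3 and did not pass the test (log2 1.51 ± 0.56, edgeR adjusted p = 0.0739).

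Chrnb2, the main beta partner of alpha4 and alpha6, had 85.8, 216, 72.6 and 126 CPM in PTX CKO and 197, 187, 77.4 and 59.6 CPM in PTX fl/fl. It had 0.112, 25.2, 8.43 and 9.68 CPM in vehicle CKO and 52.8, 6.67, 22.8 and 32.9 CPM in vehicle fl/fl. All PTX libraries exceeded all vehicle libraries, the nearest being vehicle fl/fl replicate 1. The averaged log2 fold change was 2.85 ± 0.63 (edgeR adjusted p = 0.00625), and the adjusted p within CKO, 0.0513, was the smallest of any member there.

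Chrna4, the alpha subunit of the classic high-affinity nicotine receptor, had 5.80, 11.1, 9.99 and 30.8 CPM in PTX CKO and 9.71, 11.7, 18.0 and 56.3 CPM in PTX fl/fl. Vehicle CKO libraries had 8.86, 0.111, 0 and 0.937 CPM, and vehicle fl/fl libraries 0, 0.117, 0 and 0 CPM. In fl/fl the groups did not overlap, and Chrna4 was the 1 member called within a single genotype (edgeR adjusted p = 0.0125). There 981 counts over the PTX libraries stood against 1 over the vehicle libraries, a ratio of 954 with a 95% counting interval of 171 to 37708 that covers counting error only. In CKO, vehicle replicate 1 overlapped the PTX range (log2 2.53 ± 1.35, edgeR adjusted p = 0.315). Over both genotypes Chrna4 averaged 19.2 ± 16.9 CPM after PTX and 1.25 ± 3.09 CPM after vehicle (SD, n = 8 each; edgeR adjusted p = 0.00269). The fitted average and interaction folds rest on the 1 count in vehicle fl/fl and are not given, and the interaction did not pass (edgeR adjusted p = 1). Chrna4 was the 1 call that held without the earlier PTX date (edgeR adjusted p = 0.0412).

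Chrna7 encodes the subunit of the homomeric alpha7 receptor, with high calcium permeability. It had 16.9, 18.2, 0 and 9.30 CPM in PTX CKO and 8.46, 17.8, 7.55 and 6.29 CPM in PTX fl/fl, against 0, 0, 0.128 and 0 CPM in vehicle CKO and 0, 0, 0 and 4.82 CPM in vehicle fl/fl. One PTX library was at 0 and 6 of 8 vehicle libraries were at 0. It averaged 10.6 ± 6.51 CPM after PTX and 0.618 ± 1.70 CPM after vehicle (SD, n = 8 each; edgeR adjusted p = 0.0207), and no fitted fold is given because vehicle CKO had 1 count.

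Chrnb4 and Chrna3, neighbours on chromosome 9, encode the beta4 and alpha3 subunits of the ganglionic type of receptor. Chrnb4 ran from 0 through a median of 5.46 to 27.7 CPM after PTX, against 0, 0 and 4.98 CPM after vehicle (log2 4.83 ± 1.60, edgeR adjusted p = 0.0480). Its call was lost on leaving out any 1 of 11 libraries (PTX fl/fl replicates 1 and 2, PTX CKO replicates 1, 2 and 4, vehicle fl/fl replicates 1, 2 and 3, vehicle CKO replicates 1, 3 and 4), with adjusted p of 0.0593 to 0.106. Chrna3 was counted in 4 of 8 PTX libraries, namely 3 of PTX fl/fl (11.4, 4.83 and 7.86 CPM) and PTX CKO replicate 2 (1.90 CPM), and in 2 of 8 vehicle libraries. Its 290 counts after PTX stood against 2 after vehicle, a ratio of 137. The 95% counting interval of 37.5 to 1135 covers counting error only. Chrna3 was called at an edgeR adjusted p of 0.0328. That call was lost without any 1 of 10 libraries (PTX fl/fl replicates 1 and 2, PTX CKO replicate 2, all 4 of vehicle fl/fl, vehicle CKO replicates 1, 2 and 4), with adjusted p of 0.05 to 0.974. Chrna3 overlaps Chrna5 in the annotation, and the strand setting of the counting is not stated, so its counts are uncertain. Chrnb1, the muscle-type beta subunit, ranged from 0 to 8.76 CPM after PTX and from 0 to 7.62 CPM after vehicle (edgeR adjusted p = 0.642).

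**Figure D3:**
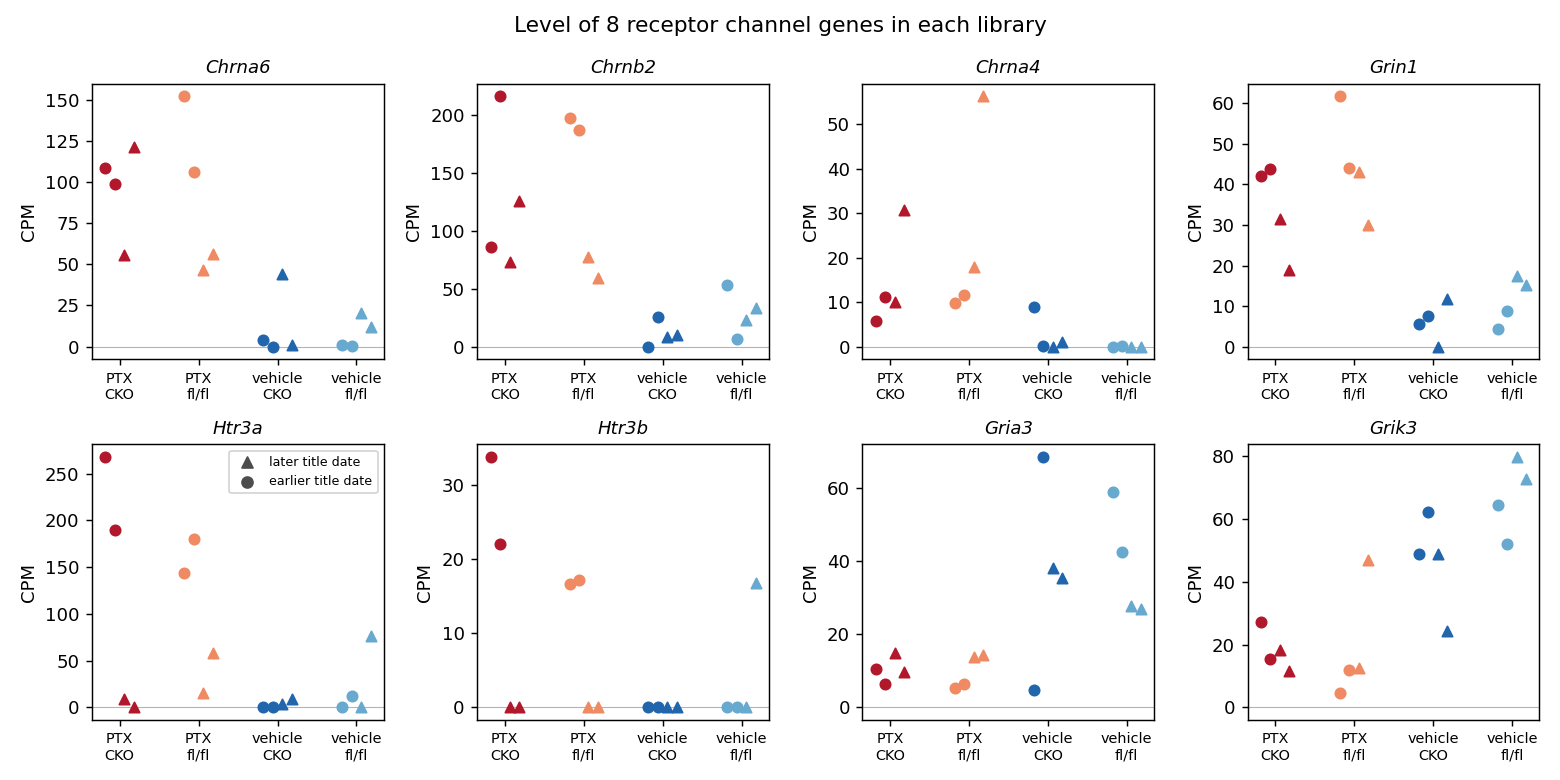
Level in CPM (y axis) of 8 receptor channel genes in each library, by group, with circles for the earlier and triangles for the later title date. Chrna6, Chrnb2 and Grin1 lie above vehicle in all 8 PTX libraries, Htr3a and Htr3b are high in the 4 earlier-date PTX libraries, and Gria3 and Grik3 lie mostly below vehicle.

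The 5-HT3 receptor is the only serotonin receptor that is an ion channel, and Htr3a encodes the subunit needed for it. Htr3a had 268, 190, 9.48 and 0.358 CPM in PTX CKO and 144, 180, 15.6 and 57.9 CPM in PTX fl/fl, against 0.336, 0.221, 4.22 and 8.95 CPM in vehicle CKO and 0.218, 12.1, 0.247 and 76.0 CPM in vehicle fl/fl. The 4 highest libraries were those of the earlier PTX date in both genotypes. Htr3b, its neighbour on chromosome 9 and the subunit that raises the single-channel conductance, had 33.7, 22.0, 0 and 0 CPM in PTX CKO and 16.6, 17.2, 0 and 0 CPM in PTX fl/fl. It was 0 in every vehicle library apart from vehicle fl/fl replicate 4, at 16.7 CPM. Htr3b was therefore counted in 5 libraries, and these were the 5 with the most Htr3a, from 76.0 to 268 CPM, whereas Htr3a ran from 0.218 to 57.9 CPM in the other 11. Neither gene passed the PTX test. Htr3a had a log2 fold change of 3.62 ± 1.28 (edgeR adjusted p = 0.0652). Htr3b, with 0 counts in vehicle CKO, averaged 11.2 ± 13.0 CPM after PTX and 2.09 ± 5.90 CPM after vehicle (SD, n = 8 each; edgeR adjusted p = 0.107).

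Within PTX, 3 members had lower values in all 4 later-date libraries than in all 4 earlier-date libraries, namely Htr3a, Htr3b and Gria4, where this held for 12.7% of all genes. One member, Gabre, was higher on the later date, against 9.75% of all genes. Htr3a averaged 20.8 ± 25.5 CPM on the later and 195 ± 52.2 CPM on the earlier date, and Htr3b 0 and 22.4 ± 7.95 CPM (SD, n = 4 each). Marker sums separated the same libraries. Sensory neuron markers summed to 7796 to 11036 CPM on the later date and 15404 to 20737 CPM on the earlier one. Neutrophil markers had 49417 to 115268 CPM on the later and 263 to 9765 CPM on the earlier date, macrophage markers 2493 to 5183 and 61.8 to 650 CPM, and lymphocyte markers 22.1 to 78.3 and 0.197 to 6.14 CPM. Their part in the date differences was not tested, and the labels do not say what the dates mark.

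Among the GABA-A subunits 2 of 11 tested, of 19 in the set, were called higher after PTX and 0 lower. Over all genes 10.6% were called higher and 6.19% lower. Both subunits called were rare, and both had passed the filter only through PTX libraries. Gabrd, the delta subunit of extrasynaptic receptors, had at most 3.19 CPM and was counted in 5 of 8 PTX libraries and in 0 of 8 vehicle libraries. Its 114 counts after PTX were at least 35.9-fold higher, against a floor of 3 counts over the vehicle libraries (edgeR adjusted p = 0.0276). Without PTX fl/fl replicate 1 or PTX CKO replicate 2 its adjusted p was 0.0525 and 0.0518. Gabrb1 had 0, 0.759, 2.06 and 0 CPM in PTX CKO and 8.05, 3.60, 10.5 and 0 CPM in PTX fl/fl. Its 269 counts after PTX stood against 2 after vehicle, a ratio of 127. The 95% counting interval of 34.8 to 1053 covers counting error only. The edgeR adjusted p was 0.0191. Gabrb1 overlaps Gabra4 in the annotation, so its counts are uncertain too.

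None of the other GABA-A subunits passed the test. Gabra2, an alpha subunit, ran from 0.119 through a median of 51.7 to 103 CPM after PTX, against 2.47, 14.6 and 30.5 CPM after vehicle (log2 1.62 ± 0.89, edgeR adjusted p = 0.223). Replicate 4 of both PTX groups was low, at 0.119 CPM in CKO and 0.203 CPM in fl/fl. Gabra3, Gabrb2, Gabre and Gabrg1 reached at most 43.1 CPM in any library, in Gabra3, and were not called (edgeR adjusted p of 0.494 to 0.799). Gabra3, Gabrb2 and Gabre had log2 fold changes from -0.64 for Gabrb2 to 0.85 for Gabre, and Gabrg1, with 2 counts in vehicle CKO, averaged 2.57 ± 3.30 CPM after PTX and 4.77 ± 11.8 CPM after vehicle (SD, n = 8 each). The summed GABA-A level was 211 ± 55.4 CPM after PTX and 63.9 ± 32.9 CPM after vehicle (SD, n = 8 each), and library sums did not overlap. Glrb ran from 52.5 through a median of 60.6 to 110 CPM after PTX, against 0.221, 20.0 and 74.1 CPM after vehicle, and did not pass (log2 1.47 ± 0.61, edgeR adjusted p = 0.109).

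**Figure D4:**
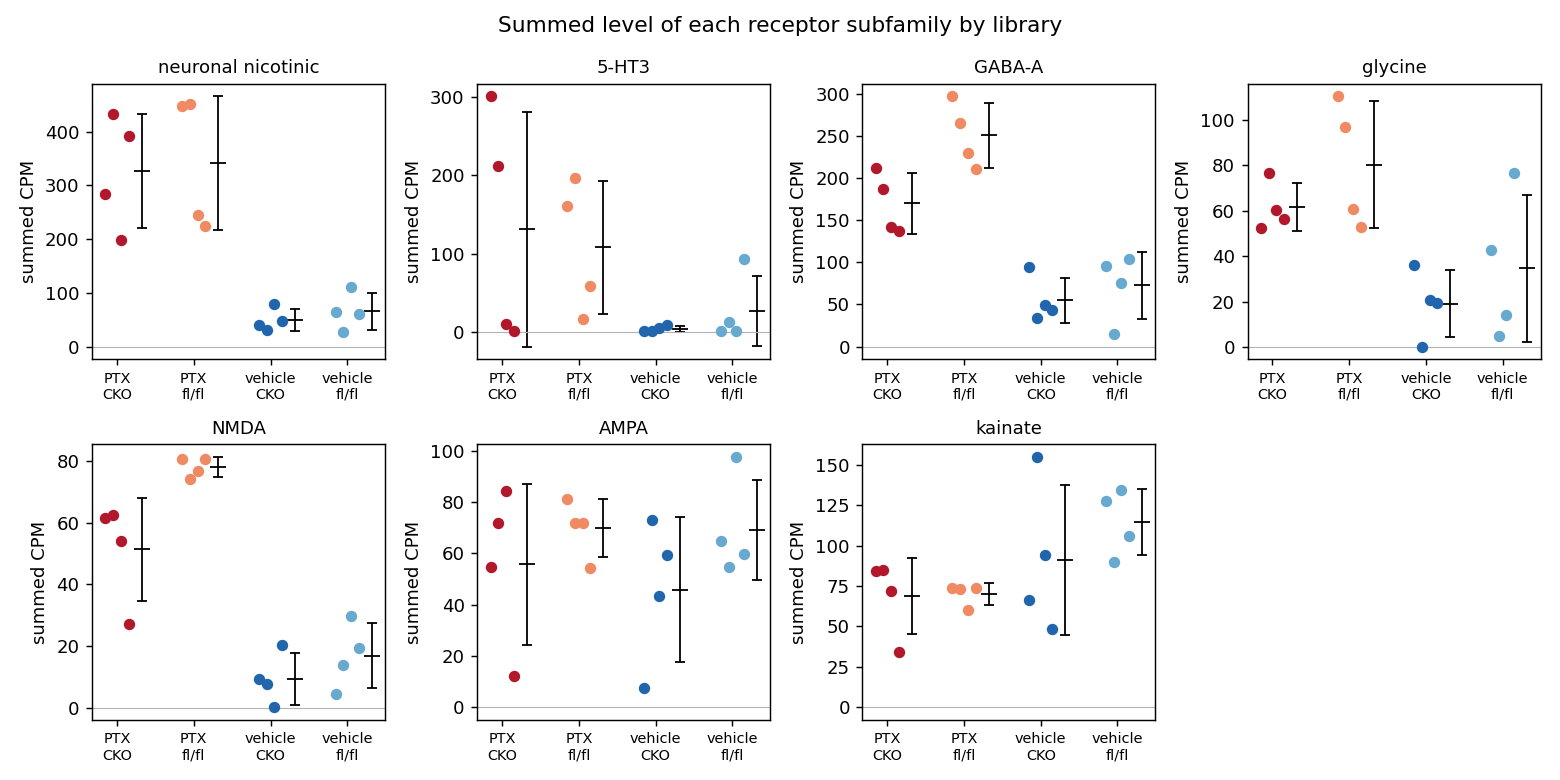
Summed CPM (y axis) of 7 receptor subfamilies in each library (points), with the group mean and SD (bars, n = 4). Neuronal nicotinic, GABA-A and NMDA sums lie above vehicle in both genotypes (NMDA at 64.7 ± 18.1 after PTX and 13.1 ± 9.67 after vehicle), while AMPA sums overlap and kainate means are lower after PTX.

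The NMDA subunits gave 2 calls among 4 tested, of 7 in the set, both higher after PTX. Over all genes 10.6% were called higher. Grin1 had passed the filter under both treatments, and Grin3a only through PTX libraries. Grin1, the glycine-binding subunit that every NMDA receptor needs, had 42.0, 43.7, 31.4 and 18.8 CPM in PTX CKO and 61.6, 43.9, 43.1 and 29.9 CPM in PTX fl/fl. It had 5.61, 7.63, 0.128 and 11.8 CPM in vehicle CKO and 4.48, 8.89, 17.4 and 15.1 CPM in vehicle fl/fl. No PTX library was as low as any vehicle library, and the averaged log2 fold change was 2.20 ± 0.56 (edgeR adjusted p = 0.0136). Grin3a, a glycine-binding subunit that lowers calcium permeability, had 14.3, 14.4, 21.0 and 1.55 CPM in PTX CKO and 16.1, 24.9, 25.2 and 41.8 CPM in PTX fl/fl, against 3.59, 0, 0 and 0 CPM in vehicle CKO and 0.109, 3.28, 3.29 and 0 CPM in vehicle fl/fl. Only PTX CKO replicate 4 fell within the vehicle range (log2 3.91 ± 1.20, edgeR adjusted p = 0.0347). The call was lost on leaving out any 1 of 9 libraries (PTX fl/fl replicates 1, 2 and 4, PTX CKO replicates 1, 2 and 3, vehicle fl/fl replicate 1, vehicle CKO replicates 2 and 3), with adjusted p of 0.0502 to 0.0608. The glutamate-binding Grin2 genes were scarce: Grin2a had 0 counts, Grin2b and Grin2c did not pass the filter, and Grin2d was tested and not called (log2 1.85 ± 1.40, edgeR adjusted p = 0.382). Grin3b had a log2 fold change of -0.08 ± 1.57 (edgeR adjusted p = 0.978).

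AMPA and kainate receptors held the 2 calls in the other direction, where 6.19% of all genes were called lower. Gria3, an AMPA subunit, had 10.5, 6.35, 14.9 and 9.54 CPM in PTX CKO and 5.31, 6.41, 13.7 and 14.2 CPM in PTX fl/fl, against 4.71, 68.4, 37.9 and 35.3 CPM in vehicle CKO and 58.7, 42.4, 27.6 and 26.8 CPM in vehicle fl/fl. Vehicle CKO replicate 1 was the single vehicle library within or under the PTX range, and the averaged log2 fold change was -1.90 ± 0.47 (edgeR adjusted p = 0.0116). Grik3, a low-affinity kainate subunit, had 27.2, 15.3, 18.3 and 11.7 CPM in PTX CKO and 4.65, 11.9, 12.5 and 47.0 CPM in PTX fl/fl, against 48.8, 62.4, 48.9 and 24.4 CPM in vehicle CKO and 64.4, 52.2, 79.8 and 72.8 CPM in vehicle fl/fl. The groups overlapped only through PTX CKO replicate 1, PTX fl/fl replicate 4 and vehicle CKO replicate 4 (log2 -1.58 ± 0.40, edgeR adjusted p = 0.0137). With the glial and Schwann marker mean as a covariate Grik3 was no longer called and changed sign (log2 0.77, edgeR adjusted p = 0.947).

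Other members of these families had fitted differences of either sign that did not pass. Grik4, a high-affinity kainate subunit, ran from 8.53 through a median of 35.9 to 59.8 CPM after PTX, against 0, 5.43 and 15.2 CPM after vehicle (log2 2.53 ± 0.94, edgeR adjusted p = 0.0762). Gria4 had a median of 25.0 CPM after PTX and 7.98 CPM after vehicle, with overlapping ranges (log2 0.92 ± 0.86, edgeR adjusted p = 0.487). Gria1 and Gria2, the remaining AMPA subunits, had log2 fold changes of 2.65 ± 1.04 and 2.64 ± 1.14 (edgeR adjusted p = 0.0913 and 0.123). Grik2 and Grik5, the remaining kainate subunits, had -1.78 ± 0.84 and -0.65 ± 0.61 (edgeR adjusted p = 0.157 and 0.491). The summed AMPA level was 62.7 ± 23.1 CPM in PTX and 57.4 ± 25.6 CPM in vehicle libraries, and the summed kainate level 69.4 ± 16.1 and 103 ± 35.5 CPM (SD, n = 8 each). Grid1, a delta receptor gene whose product organises synapses, was not called, with a median of 4.08 CPM after PTX and 10.5 CPM after vehicle (log2 -1.55 ± 0.80, edgeR adjusted p = 0.193). Grid1 was not called between genotypes either. Within CKO it averaged 9.38 ± 4.76 CPM after PTX and 11.3 ± 11.1 CPM after vehicle, with overlap, and within fl/fl 2.05 ± 1.53 CPM after PTX and 14.7 ± 9.71 CPM after vehicle, without overlap (SD, n = 4 each; log2 -0.27 ± 1.10 in CKO and -2.83 ± 1.18 in fl/fl, edgeR adjusted p = 0.926 and 0.191). Under PTX all 4 CKO libraries lay above all 4 fl/fl libraries, and neither that difference nor the interaction passed (edgeR adjusted p = 1 in both). The share of all genes with such a separation is not given here, so it describes the values alone.

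The subfamilies were also set against the neuron marker sum of the same library. Per 100 CPM of sensory neuron markers, the neuronal nicotinic subunits had 2.52 ± 1.03 CPM in PTX libraries and 2.12 ± 0.86 CPM in vehicle libraries, the NMDA subunits 0.488 ± 0.173 and 0.502 ± 0.425 CPM, and the GABA-A subunits 1.58 ± 0.371 and 2.16 ± 0.799 CPM (SD, n = 8 each). In each of these 3 subfamilies the PTX and vehicle ranges overlapped. The kainate subunits had 0.527 ± 0.171 CPM per 100 CPM after PTX, with a highest value of 0.864. After vehicle they had 4.77 ± 3.86 CPM, with a lowest value of 1.42, so the ranges did not overlap. The neuron marker sum itself did not overlap, at 7796 to 20737 CPM after PTX and 1010 to 6512 CPM after vehicle. The kainate sums did, at 34.3 to 84.7 and 48.6 to 155 CPM. What the denominator added to the separation was not tested. The AMPA subunits had 0.473 ± 0.258 CPM per 100 CPM after PTX and 2.58 ± 1.98 after vehicle, with overlap (0.156 to 1.01 and 0.215 to 5.73). Over all channel subunits the figure was 6.96 ± 1.03 after PTX and 14.3 ± 7.08 after vehicle, also with overlap (5.55 to 8.96 and 7.40 to 24.8).

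**Figure D5:**
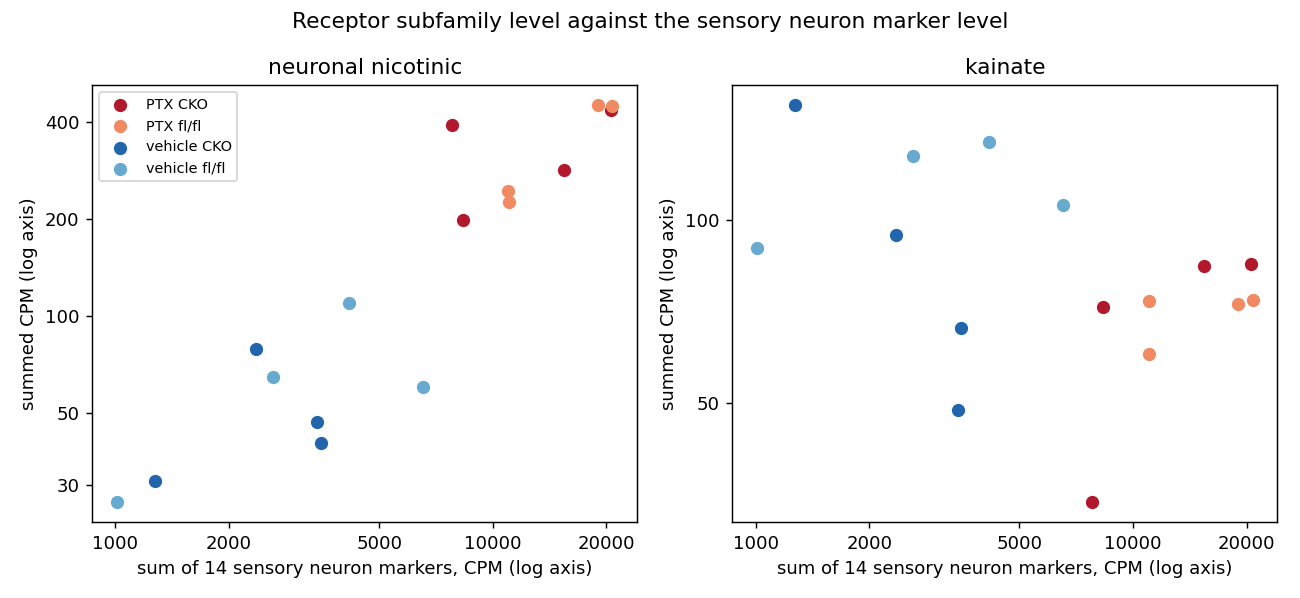
Summed CPM of the neuronal nicotinic (left) and kainate (right) subunits against the sum of 14 sensory neuron markers in the same library (both axes logarithmic), coloured by group. Nicotinic sums are high in the 8 PTX libraries, where the neuron marker sum is 7796 to 20737 CPM, and kainate sums are mostly highest in vehicle libraries, where it is 1010 to 6512 CPM.

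By edgeR, genotype made no called difference in any member. CKO against fl/fl gave 0 calls under PTX, under vehicle and in the interaction, where 0%, 0.0211% and 0.00704% of all genes were called by edgeR. Unadjusted p was under 0.05 for 0, 4 and 2 members, against 1.87%, 4.61% and 3.35% of all genes. DESeq2 called 0, 2 and 1 of 35 members, against 0.0708%, 0.588% and 0.354% of all genes. Under PTX the summed neuronal nicotinic level was 327 ± 106 CPM in CKO and 342 ± 124 CPM in fl/fl, and the summed GABA-A level 170 ± 36.2 CPM in CKO and 251 ± 38.5 CPM in fl/fl (SD, n = 4 each). Unpaired, the GABA-A sums overlapped, at 138 to 213 CPM in CKO and 211 to 298 CPM in fl/fl. Libraries of the same replicate number were taken to pair under PTX, although the labels state no pairing and these libraries also share a title date. Only replicate 3 matched its own number best in both directions. The GABA-A sums of these pairs differed by -85.2, -78.2, -87.9 and -73.1 CPM (CKO minus fl/fl), lower in CKO in 4 of 4 pairs. The NMDA sum under PTX was 51.3 ± 16.6 CPM in CKO and 78.0 ± 3.29 CPM in fl/fl, without overlap, at 27.1 to 62.6 and 74.0 to 80.7 CPM, and was lower in CKO in 4 of 4 pairs, with differences of -19.2, -11.4, -22.5 and -53.6 CPM. The neuronal nicotinic, glycine and AMPA sums were lower in CKO in 3 of 4 pairs, as was the sum of the sensory neuron markers. The 5-HT3 and muscle-type nicotinic sums were lower in CKO in 2 of 4 pairs, and the kainate and delta sums in 1 of 4. An exact two-sided sign-flip test over the pairs gave p = 0.125 for the GABA-A and for the NMDA sum, which is the smallest 4 pairs allow, so neither could pass, and 0.750 for the neuronal nicotinic sum. Within the title dates, 2 of 36 members were higher in CKO on both PTX dates, 12 lower on both and 22 mixed or at 0, where 20.8% of all genes were higher and 32% lower on both. Under vehicle these counts were 3, 9 and 24, against 17% of all genes higher and 22.9% lower.

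The genes that work with these channels were taken as 5 lists, and the counts are those of the averaged PTX comparison, to be read against the 10.6% of all genes called higher and 6.19% called lower. The 2 of 20 glutamate receptor partners and the 2 of 19 transmitter genes called higher lie near that share. Which listed genes passed the filter only through PTX libraries was not worked out. Of all such genes 20.1% were called higher and 0% lower. Counts and medians of the 5 lists therefore describe them and are no support for a direction. Of 13 GABA-A and glycine receptor partners, 5 were higher and 0 lower (median log2 0.24). They were Gabarapl1, a trafficking relative of the GABA-A receptor-associated protein (log2 1.75 ± 0.24, edgeR adjusted p = 0.000300), Nsf, a fusion ATPase (2.19 ± 0.31), Lhfpl4, which brings GABA-A receptors to gephyrin (2.50 ± 0.42), Trak1 (1.07 ± 0.28) and Ubqln1 (0.69 ± 0.22). Gphn, which encodes gephyrin itself, averaged 51.4 ± 12.5 CPM after PTX and 19.9 ± 17.4 CPM after vehicle in CKO, and 29.99 ± 17.5 CPM after PTX and 55.3 ± 23.8 CPM after vehicle in fl/fl (SD, n = 4 each). Its log2 fold change was 1.36 ± 0.64 in CKO and -0.88 ± 0.63 in fl/fl, and neither passed, nor did the interaction (edgeR adjusted p = 0.247, 0.488 and 1). Of 20 glutamate receptor partners tested, Nsg2, an endosomal protein that binds AMPA receptors (2.50 ± 0.36), and Cacng3, an AMPA receptor auxiliary subunit with 0 counts after vehicle, were higher and 0 lower (median log2 1.19). Of 12 nicotinic partners tested, 0 were higher and Musk, the kinase of the muscle endplate, was lower (log2 -2.21 ± 0.73, edgeR adjusted p = 0.0478; median log2 0.29).

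Among 19 tested genes of transmitter synthesis, transport and chloride balance, 2 were higher and 1 lower (median log2 0.23). Slc17a6, the vesicular glutamate transporter of sensory neurons, averaged 274 ± 77.2 CPM after PTX and 50.2 ± 31.3 CPM after vehicle (SD, n = 8 each; log2 2.45 ± 0.37, edgeR adjusted p = 0.000440). Ache, which degrades acetylcholine, averaged 154 ± 68.7 and 56.5 ± 25.6 CPM (log2 1.42 ± 0.43, edgeR adjusted p = 0.0338). Slc12a2, the chloride importer of sensory neurons, averaged 83.8 ± 26.0 CPM after PTX and 156 ± 36.8 CPM after vehicle (log2 -0.92 ± 0.20, edgeR adjusted p = 0.00600). Of 20 metabotropic receptors of the same transmitters, 6 were higher and 0 lower (median log2 2.48): the serotonin receptors Htr1a, Htr1b, Htr1d and Htr4, the GABA-B subunit Gabbr1 and the glutamate receptor Grm7. Gabbr1 averaged 154 ± 49.0 CPM after PTX and 62.0 ± 24.3 CPM after vehicle (log2 1.31 ± 0.29, edgeR adjusted p = 0.00585), and Grm7 104 ± 26.8 and 21.2 ± 16.3 CPM, without overlap (log2 2.30 ± 0.71, edgeR adjusted p = 0.0362).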

How the data were processed

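RNA from 16 libraries of sorted ganglion cells was measured by stranded poly(A) sequencing with 50-base single reads from about 500 ng of RNA, per the labels' protocols. Per the submitters' processing notes, the tools were bcl2fastq, TopHat2 and HTSeq on mm9, with versions, annotation and strand setting not given in the sources used here. Each file as deposited gives the authors' unnormalized whole-number counts, and 5 summary lines per file were left out. CPM were computed from these deposited counts over TMM-scaled library sizes.

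Genes were filtered with filterByExpr (14200 left) and fitted with edgeR 4.0.16 in R 4.3.3 (quasi-likelihood, robust, all 16 libraries, 12 residual degrees of freedom, common biological coefficient of variation 0.939). Tests were two-sided, p-values were adjusted by Benjamini-Hochberg over the 14200 genes, and the threshold was 0.05. Standard errors came from the fold change and its F statistic. With at most 3 counts over a group a count ratio with its interval, a bound against 3 counts, or the group means replace the fitted fold. The alternatives were RLE scaling, 2 other filters, replicate and date blocks, 2 marker covariates, DESeq2 1.42.0, limma-voom (limma 3.58.1), single title dates, the compared groups alone and each library left out in turn. The fit was checked on simulated data.

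No 2 libraries of a group were identical (lowest chi-square per degree of freedom 20.3). Replicate numbers correlated at 0.43, 0.48, 0.47 and 0.23 between genotypes under PTX, where the numbers also share a title date. They were taken to pair the libraries there, although the labels state no pairing. In the other comparisons they were not. The members, marker lists and partner lists were chosen with earlier results of these data known. Named members are all called ones, the 2 most abundant of each subfamily, and those below the filter. Chrnb3 and the uncalled members given by fold change alone were added after their values were seen. Of the partner lists the text names called genes, at most 6 per list, and Gphn, also added afterwards. Some genes that match the symbols are not reported here, though counts and sums include those fitted. Exon lengths are from GENCODE M21, and neighbours and promoter windows from RefSeq (GRCm38.p6). 43 of 60 members had a window. The count files hold no coordinates.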

Additional observations from a re-analysis of the deposited data

Results flagged for a closer look

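In 18 of 113 sets of 4 libraries (15.9%) 1 library lay far from the other 3, where chance gives about 1 in 20. Many such sets hold 3 libraries at 0, for which any count is set apart. Values are in CPM, and no explanation was tested.

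After PTX, the summed kainate level was low in PTX fl/fl replicate 3 at 60.2, where the next library had 72.9. PTX CKO replicate 4 had 0 for Gria4, where the others had 23.8 to 26.3. Chrna3 stood at 1.90 in PTX CKO replicate 2 with the others at 0.

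In vehicle CKO, Chrna6 reached 44.3 in replicate 3, where the next library had 4.15. Chrna4 stood at 8.86 in replicate 1, Grin3a at 3.59 in replicate 1 and Chrnb4 at 4.98 in replicate 2. Chrna3 and Chrna7 each had 0.128 in replicate 3, and Gabrb1 had 0.104 in replicate 4.

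In vehicle fl/fl, replicate 4 had 76.0 for Htr3a, 16.7 for Htr3b and 92.7 for the summed 5-HT3 level, with the next library at 12.1. The same library had 4.82 for Chrna7 and 0.332 for Chrnb4. Chrna3 stood at 0.109 in replicate 1, Chrna4 at 0.117 in replicate 2 and Gabrb1 at 0.0823 in replicate 3.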

How the results depend on the processing

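Counts of called members in CKO, fl/fl and the average of both were 0, 1 and 12. With DESeq2 they were 6, 7 and 18, with limma-voom 6, 19 and 22, with the neuron marker covariate 0, 0 and 0, and with the glia and Schwann marker covariate 0, 0 and 0. Without the earlier PTX date they were 0, 0 and 1, and without the later PTX date 4, 4 and 16. The filter of 5 CPM in 4 libraries gave 1, 1 and 9, and the date block 1, 1 and 12. Leaving out each library gave 0 to 2, 1 to 3 and 7 to 13. DESeq2 called 2 members between genotypes under vehicle and 1 in the interaction, where edgeR called 0. The replicate block gave 0, 1 and 10, sharing 9 of the 12 members, and changed no count of calls by over 1.5 times. Same-number correlations were -0.01 to 0.11 in CKO and -0.20 to -0.17 in fl/fl between treatments, and -0.05 to 0.02 between genotypes under vehicle, so the libraries share only a number there. With the glia and Schwann marker covariate Chrna3 (log2 -3.52), Gabrb1 (-0.0592) and Grik3 (0.77) changed sign in the averaged comparison; the cause was not tested. No other called member changed sign under the alternatives run. RLE scaling gave 0, 1 and 11 calls and moved the median of all genes by under 0.1. Chrna3, Gabrb1 and Gabrd did not pass the 5 CPM filter, and Chrna3 gave no value without the earlier PTX date. Low counts limit these genes: 11 of 36 members had a count in 10 or fewer libraries.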
